A study of Mus musculus with 12 samples.

Results

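Imprinted genes of distal chromosome 2 were described in adult mouse retina: H13, Mcts2, Gm17559 and Tpx2 in a first cluster, Blcap and Nnat in a second, and Gnas and Nespas in the last. These 8 genes, of 37991 in the deposited tables, were chosen by name, with the maternal and paternal values of these same libraries known. Their parent-of-origin values are therefore given as a description, without a test. The strain differences and the totals of the reciprocal crosses had no part in that choice and were tested.

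The libraries were made from polyadenylated RNA of retinas from male mice aged 8 weeks, with 3 libraries in each of 4 groups and a pool of 6 to 8 retinas in each library. F0 C57BL/6J and F0 Cast/EiJ are the inbred parental strains. F1 B6xCast mice had a C57BL/6J sire and a Cast/EiJ mother, and F1 CastxB6 mice had a Cast/EiJ sire and a C57BL/6J mother, so that the strain of the maternal allele differed between the reciprocal crosses. Paired-end reads were taken from 1 lane for F0 and 2 lanes for F1, from a kit that does not mark the strand, and the labels name no transgene or other engineered allele in any group. Since the retinas were pooled and whole, fewer cells of a type and less RNA per cell cannot be told apart.

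Genomic imprinting is the expression of a gene mainly from the allele of 1 parent. It is set by DNA methylation that is laid down in the egg or the sperm and kept at imprinting control regions after fertilization. In the mouse, distal chromosome 2 holds several such regions. A recurring arrangement there is a host gene with a small gene inside an intron, whose promoter is methylated on the maternal allele, so that the nested gene is paternally expressed. H13 with the retrogene Mcts2 and Blcap with the spliced gene Nnat are known pairs of this kind, and Gnas is known for several promoters of different parental origin.

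The count equivalent of a gene is a normalized, non-integer estimate of its reads that also divides reads shared between alleles, with 1 value in an F0 library and 1 for each allele in an F1 library. The unique hits are whole counts of read pairs that fit a single gene and, in F1, a single allele of it. The count equivalents of all genes summed to about the same total in an F0 library and on each allele of an F1 library, so the mean of both alleles can be set beside F0. Unique hits per library ranged from 8158534 to 12363291 over the 12 libraries. The 4 bipolar cell markers summed to 12900 to 16440 count equivalents per library and the 3 Mueller glia markers to 33700 to 46370, with 0 of these under 1 in all libraries, so the tissue had defining markers of its label. The 4 markers of the retinal pigment epithelium summed to 145.5 to 186 count equivalents in F0 C57BL/6J, 42.6 to 67.5 in F0 Cast/EiJ, 66.1 to 167 in F1 B6xCast and 85.0 to 154 in F1 CastxB6. The 4 ganglion cell markers summed to 10150 to 11079 in F0 C57BL/6J and 6555 to 7213 in F0 Cast/EiJ, with 8073 to 9373 in the F1 libraries. The 4 cone markers were also lower in F0 Cast/EiJ (5640 to 6396 against 7540 to 8930), and the 3 amacrine markers were higher there (7968 to 8558 against 5669 to 6785), both without overlap. Their part in the strain differences below was not tested.

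The first cluster spans the H13 gene (ENSMUSG00000019188) at chr2:152495197-152534406 on the plus strand (build NCBI37, which holds for all positions here). H13 encodes signal peptide peptidase, an intramembrane protease that cleaves signal peptides left in the membrane of the endoplasmic reticulum. Mcts2 (ENSMUSG00000042814), an intronless copy of the X-linked gene Mcts1, lies at chr2:152512884-152513676 inside H13 and on the same strand, with none of its 793 bases in an annotated H13 exon. The GENCODE annotation of this build has 7 H13 transcripts. Of these, 4 span Mcts2, 2 end before it, at 0.447 and 3.71 kb from its start, and 1 starts after it. Gm17559 (ENSMUSG00000090656), a long noncoding RNA gene, lies at chr2:152520469-152522428 on the minus strand, and 760 of its 1787 exonic bases (42.5%) are also in H13 exons on the other strand. As the reads carry no strand, reads over those bases cannot be told apart between Gm17559 and H13. Tpx2 (ENSMUSG00000027469), which encodes a spindle assembly factor, lies at chr2:152673700-152721057, 139 kb beyond the end of H13.

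**Figure D1:**
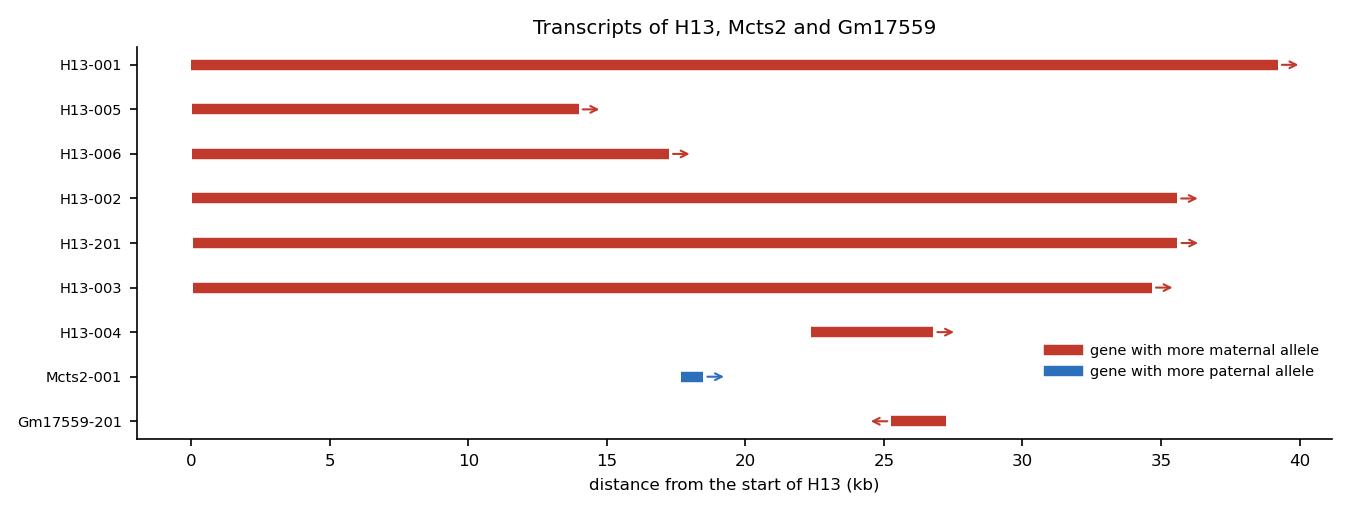
Annotated transcripts of H13, Mcts2 and Gm17559 as bars against the distance from the start of H13 in kb, with arrows for the direction of transcription and colour for the parental allele with more count equivalents of the whole gene. Mcts2 starts 17.7 kb into H13, 2 H13 transcripts end before it, and Gm17559 overlaps H13 exons on the other strand.

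The second cluster holds Blcap (ENSMUSG00000067787), a gene of a small conserved protein, at chr2:157382098-157397010 on the minus strand, and Nnat (ENSMUSG00000067786), which encodes neuronatin, a membrane protein of the endoplasmic reticulum, at chr2:157385814-157388258 on the plus strand. Nnat lies inside Blcap and shares 0 exonic bases with it. In the third cluster, Gnas (ENSMUSG00000027523) at chr2:174109821-174172245 encodes the stimulatory G protein alpha subunit and, from upstream starts, NESP55 and XLas. Its 22 annotated transcripts begin at 16 distinct positions. Nespas (ENSMUSG00000086537) is an antisense RNA gene at chr2:174106738-174120937, and 988 of its 3143 exonic bases (31.4%) are also in Gnas exons. The H13 and Nnat genes start 4.89 Mb apart, and Nnat and Gnas 16.7 Mb apart.

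The results turn on H13 against Mcts2 and on Gnas with its several starts, so the 250 bases before these starts are shown, from the promoter table of RefSeq (GRCm38.p6), which covers 5 of the 8 genes. Each was found at a single place in the NCBI37 genome by an exact match and is written on the plus strand, with capitals for CG pairs, the sites of DNA methylation. The H13 window is at chr2:152494947-152495196 and the Mcts2 window at chr2:152512634-152512883. The Gnas windows, in the order of transcription, lie before the first annotated start, that of NESP55 (chr2:174109571-174109820), and before a middle start (chr2:174153019-174153268) and a later start (chr2:174155257-174155506) that are downstream of the XLas start.
H13: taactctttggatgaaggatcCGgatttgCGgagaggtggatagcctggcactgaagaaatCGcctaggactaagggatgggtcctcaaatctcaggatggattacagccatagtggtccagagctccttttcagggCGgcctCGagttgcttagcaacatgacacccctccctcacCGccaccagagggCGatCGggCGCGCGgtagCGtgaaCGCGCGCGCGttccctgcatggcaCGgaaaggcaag
Mcts2: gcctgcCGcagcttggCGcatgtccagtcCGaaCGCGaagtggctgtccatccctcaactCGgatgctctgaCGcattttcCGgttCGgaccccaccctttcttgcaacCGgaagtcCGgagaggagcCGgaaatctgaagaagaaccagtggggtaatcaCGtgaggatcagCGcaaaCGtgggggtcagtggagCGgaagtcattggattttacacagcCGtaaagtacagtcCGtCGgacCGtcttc
Gnas, NESP55: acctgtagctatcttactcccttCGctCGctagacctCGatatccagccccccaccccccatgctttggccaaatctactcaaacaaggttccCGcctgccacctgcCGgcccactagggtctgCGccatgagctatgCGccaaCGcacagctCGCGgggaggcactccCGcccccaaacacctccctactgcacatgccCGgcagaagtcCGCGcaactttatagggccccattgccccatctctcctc
Gnas, middle start: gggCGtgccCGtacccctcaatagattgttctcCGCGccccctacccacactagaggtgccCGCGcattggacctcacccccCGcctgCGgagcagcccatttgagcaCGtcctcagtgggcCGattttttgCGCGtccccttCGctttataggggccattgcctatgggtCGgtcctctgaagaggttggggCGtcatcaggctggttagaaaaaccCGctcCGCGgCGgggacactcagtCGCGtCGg
Gnas, later start: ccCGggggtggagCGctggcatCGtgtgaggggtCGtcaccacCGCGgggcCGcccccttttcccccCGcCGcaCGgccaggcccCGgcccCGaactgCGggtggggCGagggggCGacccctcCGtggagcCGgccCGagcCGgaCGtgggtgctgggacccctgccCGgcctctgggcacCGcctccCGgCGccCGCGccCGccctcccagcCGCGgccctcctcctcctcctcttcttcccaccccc

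These windows held 18 CG pairs for H13, 20 for Mcts2, and 14, 22 and 29 for the 3 Gnas starts, where the median over all 32851 promoters of the table was 6. The windows of Blcap and Nnat held 12 each. The letters TGCCGC, the core recognized by the imprinting factor ZFP57 when methylated, were searched on both strands. They occurred in 8.68% of all promoters and, among the windows of these genes, in that of Mcts2, with the first base 247 bases before its start. A match of letters is a description and not a binding site.

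Levels between genes were compared per length, as FPKM, the exponential of the deposited log expression. Gnas was the highest, with 275 ± 13.1 FPKM (SD, n = 6 F0 libraries), followed by Blcap with 40.6 ± 4.23, H13 with 28.4 ± 2.81, Nnat with 19.3 ± 2.07 and Mcts2 with 9.30 ± 1.47. Gm17559 (0.443 ± 0.119), Tpx2 (0.371 ± 0.0592) and Nespas (0.0743 ± 0.0486) followed. The ranges over the 6 F0 libraries did not overlap between neighbours of this order, except for Gm17559 and Tpx2, which did not differ beyond their spread. Mcts1, the gene Mcts2 was copied from, had 19.4 ± 3.02 FPKM. The host gene was thus above its nested gene in both pairs in F0, H13 above Mcts2 and Blcap above Nnat.

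H13 was carried mostly by the maternal allele in all 6 F1 libraries. In F1 B6xCast the maternal Cast/EiJ allele had 1540, 1430 and 1460 count equivalents and the paternal C57BL/6J allele 851, 738 and 690. In F1 CastxB6 the maternal C57BL/6J allele had 1530, 1430 and 1360 and the paternal Cast/EiJ allele 667, 648 and 646. The lowest maternal value lay above the highest paternal value whichever strain was the mother. The maternal share was 67.4% ± 1.92 (SD, n = 6 libraries) of the count equivalents. By unique hits it was 69.6% (Wilson 95% interval 68.5 to 70.7), from 4720 maternal and 2058 paternal hits. Such intervals cover counting error only, as PCR copies were not told apart by molecular identifiers. The share differed little between libraries, from 64.4% to 69.6% by count equivalents, and the paternal allele kept the remainder.

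Set beside F0, the maternal allele was above the parental level and the paternal allele below it. H13 had 1140, 981 and 1000 count equivalents in F0 C57BL/6J and 1160, 1180 and 1170 in F0 Cast/EiJ. The mean of both alleles in the F1 libraries was 1082 ± 65.3 (SD, n = 6), within the range of the F0 libraries.

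Mcts2, inside the H13 intron, had the opposite parental direction. In F1 B6xCast the paternal allele had 190, 239 and 222 count equivalents and the maternal allele 9.30, 22.9 and 27.0. In F1 CastxB6 the paternal allele had 244, 232 and 206 and the maternal allele 10.6, 36.8 and 40.8. Each paternal value was therefore well above every maternal value, by 9.04-fold between the means. The maternal share was 9.77% ± 4.91 (SD, n = 6) of the count equivalents, and 10.4% (Wilson 95% interval 7.39 to 14.5) of 288 allele-specific unique hits, 30 of them maternal. MCTS proteins act in translation reinitiation with DENR.

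In F0, Mcts2 had 109, 141 and 113 count equivalents in C57BL/6J and 104, 149 and 109 in Cast/EiJ. The paternal allele in F1 was above all of these values and the mean of both alleles was 123 ± 12.3 (SD, n = 6). The lesser allele gave 2058 of 6778 unique hits for H13 and 30 of 288 for Mcts2. The longest run that Mcts2 shared with the 2 Mcts1 transcripts was 29 bases, and 0 of the 693 windows of 1 read length in Mcts2 were found in Mcts1. No allele-specific unique hit of Mcts1 itself was counted in F1 (0 in 6 libraries), so its count equivalents per allele, between 80.6 and 347, rest on no allele-specific hit.

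**Figure D2:**
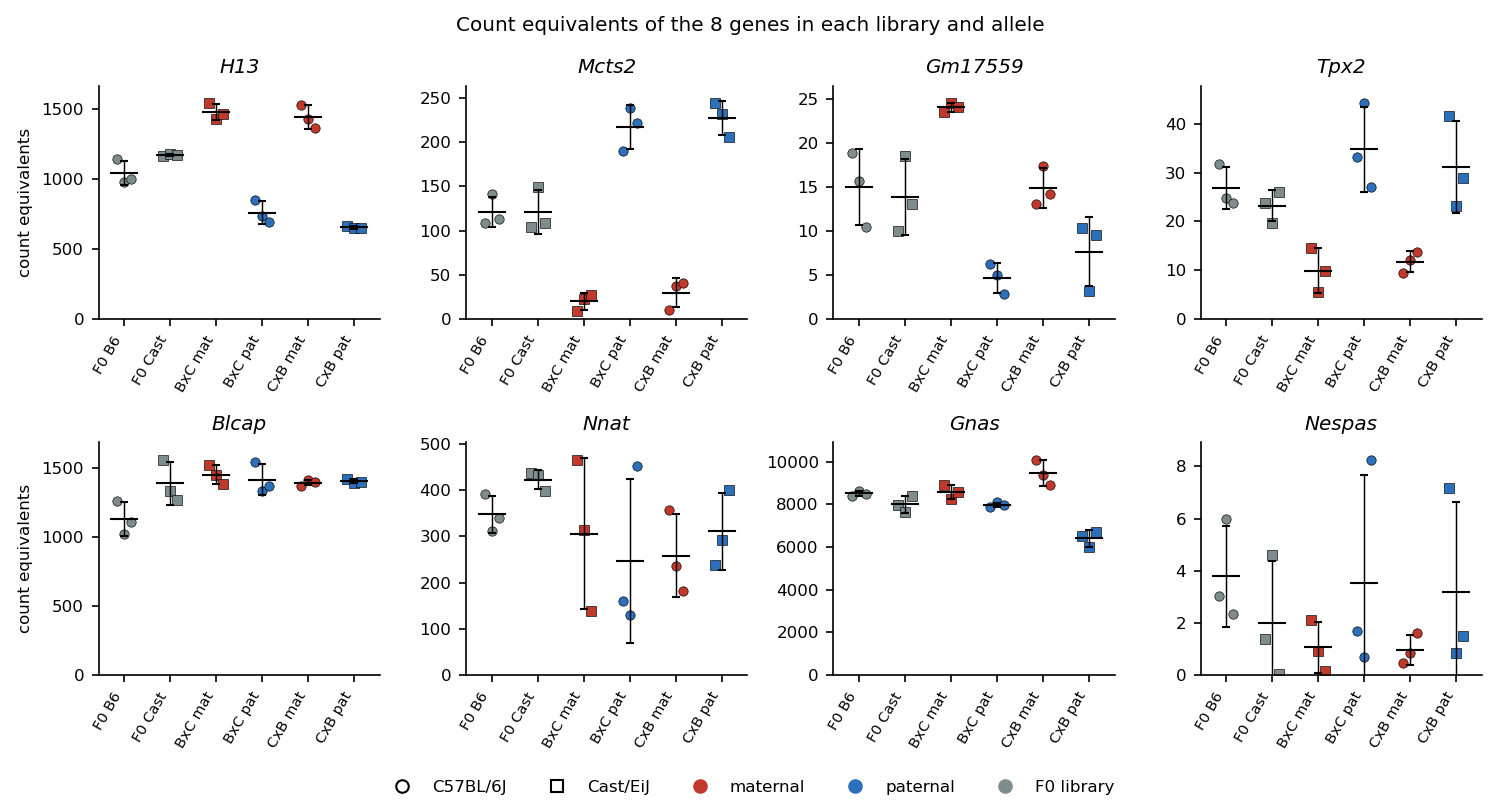
Count equivalents of the 8 genes (vertical axes, linear from 0, a scale for each gene) in the F0 libraries and on each allele of the F1 libraries (BxC for F1 B6xCast, CxB for F1 CastxB6, mat and pat for the parent), with circles for C57BL/6J and squares for Cast/EiJ, colours for the parent, and the mean with its SD over 3 libraries. H13 lies between 1360 and 1540 on the maternal and 646 and 851 on the paternal allele, and Mcts2 the other way round.

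Gm17559, on the strand opposite H13, followed the direction of H13 at a low level. The maternal allele had 23.5, 24.5 and 24.1 count equivalents in F1 B6xCast and 13, 17.4 and 14.2 in F1 CastxB6. The paternal allele had 6.19, 5.03 and 2.85 in F1 B6xCast and 10.3, 3.12 and 9.53 in F1 CastxB6. The ranges of the alleles did not overlap in either cross, and the gap was narrower when the mother was C57BL/6J. Of 88 allele-specific unique hits 67 were maternal (76.1%, Wilson 95% interval 66.3 to 83.8), with 42 of 50 in F1 B6xCast and 25 of 38 in F1 CastxB6. As a unique hit fits a single gene, a pair that fits H13 as well is not among them. How many of these hits reach into the bases shared with H13 exons was not tested.

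Tpx2 was paternal in direction. The paternal allele had 33.1, 44.2 and 27.0 count equivalents in F1 B6xCast and 41.6, 23.1 and 28.9 in F1 CastxB6. The maternal allele had 14.5, 5.43 and 9.80, and 9.46, 12.0 and 13.7. No maternal value reached a paternal one, and the paternal mean was 3.05-fold the maternal mean. Of 129 allele-specific unique hits 28 were maternal, a share of 21.7% (Wilson 95% interval 15.5 to 29.6).

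Tpx2 was low in this tissue of mostly postmitotic cells, as were the other genes of cell division. The list of mitotic spindle and cell division genes held 10 genes, of which 3 (Plk1, Aurka and Kif11) passed the filter on low values in F0. Plk1, a mitotic kinase, had 0.894 FPKM and Aurka, the kinase that TPX2 activates, 0.800, while Mki67, a marker of dividing cells, had 0.00630. Kif11, a spindle motor, was lower in F0 Cast/EiJ, with 3.43 ± 1.94 count equivalents against 21.0 ± 4.83 (SD, n = 3 each). Its log2 difference was -2.37 (adjusted p = 0.0026 from limma). The filter asked for at least 10 count equivalents in 3 libraries, which Kif11 reached in F0 C57BL/6J only. Its entry into the test thus depended on the strain where it was high, and the p-value does not account for that. Plk1 was higher in F0 Cast/EiJ (log2 difference 1.03, adjusted p = 0.016 from limma).

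The genes around the first cluster were mostly even between the alleles. Of 52 other genes that start within 500 kb of H13, Mcts2, Gm17559 or Tpx2, 22 were in the allele model, and 1 of them, Bcl2l1, passed the test of the parent-of-origin ratio. The other 21 had log2 ratios of maternal to paternal between -0.29 and 0.15, with a median of -0.02. Bcl2l1, which encodes the anti-apoptotic protein BCL-XL, lies between H13 and Tpx2 on the minus strand, and its outermost annotated start is 16.2 kb from the start of Tpx2. Its paternal allele had 1300, 1230 and 1140 count equivalents in F1 B6xCast and 1240, 982 and 1160 in F1 CastxB6. Its maternal allele had 452, 404 and 607, and 542, 879 and 701. The log2 ratio was -1.02 by limma on count equivalents (SE 0.10, adjusted p = 1.2e-05) and -0.56 by edgeR on unique hits (adjusted p = 0.00011), with the paternal allele higher in 6 of 6 libraries by both measures. The unique hits gave a maternal share of 40.4% (Wilson 95% interval 38.5 to 42.4), from 1018 maternal and 1500 paternal hits, where the count equivalents gave 33.4% ± 8.41 (SD, n = 6). By FPKM the share was 41.9% ± 1.28 (SD, n = 6), with 42.3% in F1 B6xCast and 41.6% in F1 CastxB6. Around Blcap and Nnat 9 other genes were in the model, with log2 ratios between -0.11 and 0.10, and around Gnas 6, with ratios between -0.01 and 0.16. Bcl2l1 was the 1 gene of these 37 neighbours that limma or edgeR called. Its ratio also differed between the crosses by limma (-0.65, SE 0.21, adjusted p = 0.017) but not by edgeR on unique hits (-0.21, adjusted p = 0.29).

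**Figure D3:**
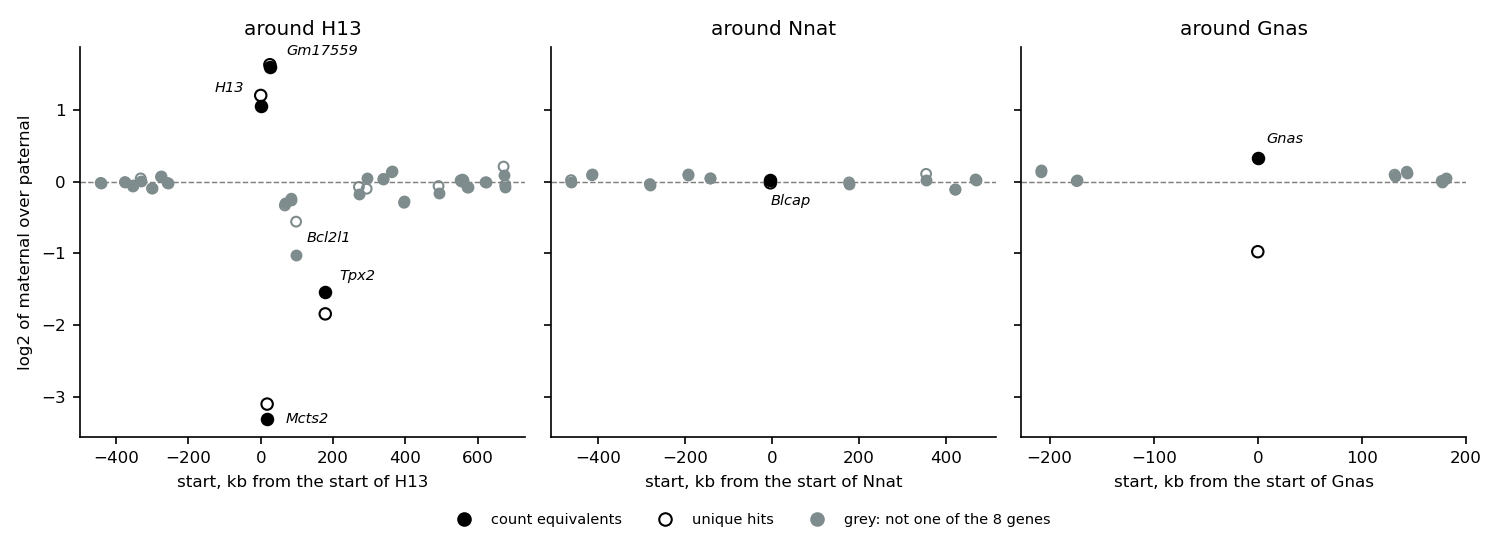
Log2 ratio of maternal over paternal expression (vertical axis) against the distance of a gene's start from the start of H13, Nnat or Gnas in kb, with filled points for count equivalents and open points for unique hits. In the left panel H13 and Gm17559 lie above 0 and Mcts2, Tpx2 and Bcl2l1 below it, and in the right panel the points of Gnas lie at 0.33 and -0.98.

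Blcap was even between the alleles. It had 1380 to 1520 count equivalents on the maternal allele in F1 B6xCast and 1370 to 1410 in F1 CastxB6, with paternal values of 1330 to 1540 and 1390 to 1420. The maternal share was 50.2% ± 1.04 (SD, n = 6) by count equivalents and 49.7% (Wilson 95% interval 46.5 to 52.9) of 950 unique hits. The interval of the unique hits held 50% in every library.

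Nnat had too few hits that tell the alleles apart to be divided between them. It had 277 to 334 unique hits in each F0 library, but 8 allele-specific hits over the 6 F1 libraries, 2 of them maternal (25.0%, Wilson 95% interval 7.15 to 59.1). Its count equivalents per allele ran from 129 to 466, and the maternal allele was the higher in 3 of 6 libraries. The posterior SD of the natural log expression was 0.278 to 1.01 per allele in F1 and 0.0593 to 0.0666 in F0. In F0 Nnat had 391, 312 and 339 count equivalents in C57BL/6J and 437, 433 and 398 in Cast/EiJ.

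Gnas gave opposite parental directions by the 2 kinds of value. The maternal allele had 8900, 8250 and 8600 count equivalents in F1 B6xCast and 10100, 9360 and 8920 in F1 CastxB6. The paternal allele had 7880, 8090 and 7950, and 6520, 5980 and 6710. The maternal allele was the higher in 6 of 6 libraries, with a share of 55.7% ± 4.56 (SD, n = 6). The unique hits had 35, 32 and 11 maternal and 81, 63 and 38 paternal in F1 B6xCast, and 18, 21 and 25 maternal and 40, 39 and 28 paternal in F1 CastxB6. By these hits the paternal allele was the higher in 6 of 6 libraries, and the maternal share was 32.9% (Wilson 95% interval 28.7 to 37.5) of 431 hits.

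The allele-specific hits of Gnas were few beside its level. An F1 library held 49 to 116 of them, where an F0 library held 1837 to 2957 unique hits of the gene, and the mean of both alleles in F1 was 8105 ± 293 count equivalents (SD, n = 6), close to the 7630 to 8640 of F0. For H13, by contrast, an F1 library held 848 to 1318 allele-specific hits and an F0 library 754 to 974 unique hits. Which of the Gnas transcripts hold the allele-specific hits was not tested. Nespas had at most 8.26 count equivalents in any column and 2 allele-specific unique hits in all, both paternal, which allow no comparison, and it passed the filter of none of the fits.

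**Figure D4:**
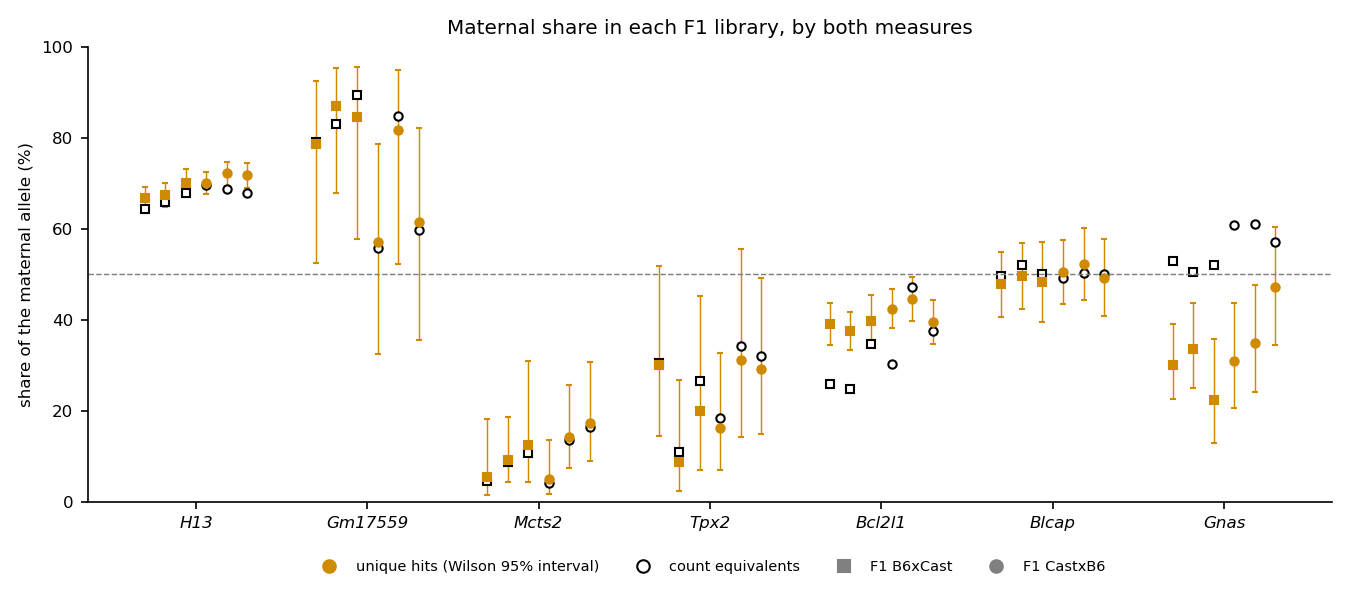
Share of the maternal allele in percent (vertical axis) for 6 of the genes and Bcl2l1 in each F1 library, by unique hits with Wilson 95% intervals and by count equivalents. H13 and Gm17559 lie above 50% and Mcts2 and Tpx2 below it by both measures, and the Gnas values lie on opposite sides of 50%.

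Over all 13414 genes of the allele model, 66 (0.492%) passed the test of the parent-of-origin ratio. The genes here had been chosen with this contrast in view, so their ratios are given without a call. The log2 ratios were 1.05 for H13, -3.31 for Mcts2, 1.59 for Gm17559, -1.54 for Tpx2, 0.33 for Gnas and 0.01 for Blcap. Nnat and Nespas had too few allele-specific hits to enter.

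Whether the parental strains differ in the level of these genes was tested first in F0. None of the 7 genes tested passed limma at an adjusted p under 0.05, where 33.8% of all 14452 genes did. At an unadjusted p under 0.05, which at least 33.8% of all genes pass, 2 of the 7 passed. EdgeR and DESeq2 on the unique hits each called 1 of 6, beside 5264 and 4430 of all 13871 genes. That gene was Blcap, which had 1130 ± 121 count equivalents in F0 C57BL/6J and 1387 ± 153 in F0 Cast/EiJ (log2 difference 0.29, SE 0.10, adjusted p = 0.057 from limma and 0.048 from edgeR). Its strains did not overlap by count equivalents, with 1260 against 1270 at the closest. By FPKM they did, with 40.5 in F0 C57BL/6J replicate 1 and 38.9 in F0 Cast/EiJ replicate 3. Nnat differed by 0.29 on the log2 scale (SE 0.11, adjusted p = 0.065 from limma), with every Cast/EiJ library above every C57BL/6J library. H13 differed by 0.17 (SE 0.08, adjusted p = 0.12) and also did not overlap between the strains. The share of all genes without such overlap was not counted. Without F0 C57BL/6J replicate 1 limma called H13 (adjusted p = 0.037), Blcap (adjusted p = 0.023) and Nnat (adjusted p = 0.024). Gnas (log2 difference -0.09, SE 0.06), Mcts2 (-0.01, SE 0.18), Tpx2 (-0.20, SE 0.24) and Gm17559 (-0.11, SE 0.35) had overlapping libraries. The large SE of the last 3 leaves a strain difference of that size undetectable at their counts.

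Within the hybrids, the strains were compared between alleles of the same parental origin. The maternal Cast/EiJ allele of F1 B6xCast and the maternal C57BL/6J allele of F1 CastxB6 differed in 29.8% of 13414 genes. Of the 6 genes tested, limma called 0, with 1 at an unadjusted p under 0.05. EdgeR and DESeq2 also called 0, beside 4022 and 3562 of all 13414 genes, with 1 and 0 at an unadjusted p under 0.05. Gnas differed by -0.14 (SE 0.06, adjusted p = 0.077 from limma) and H13 by 0.04 (SE 0.07). By edgeR on unique hits both had the other sign, with 0.39 for Gnas and -0.0059 for H13.

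Between the paternal alleles 30.3% of all genes and 2 of the 6 differed, Gnas and H13. The paternal Cast/EiJ allele of Gnas was lower than the paternal C57BL/6J allele, with 6403 ± 379 against 7973 ± 107 count equivalents (SD, n = 3 each). The log2 difference was -0.32 (SE 0.06, adjusted p = 0.00041 from limma), and the unique hits had the same direction (log2 difference -0.88, adjusted p = 0.0050 from edgeR). H13 was lower as well, with 654 ± 11.6 against 760 ± 82.7 count equivalents (log2 difference -0.21, SE 0.07, adjusted p = 0.042 from limma). By count equivalents the libraries did not overlap for either gene. By FPKM those of H13 did, with 17.18 on the C57BL/6J allele of F1 B6xCast replicate 3 and 17.27 on the Cast/EiJ allele of F1 CastxB6 replicate 3. The call of H13 was lost in 12 of 20 alternative fits, among them those without replicate 2 or 3 of F0 Cast/EiJ, replicate 1 or 2 of F1 B6xCast, or any replicate of F1 CastxB6. Without F1 B6xCast replicate 1 its log2 difference was -0.13 (adjusted p = 0.22 from limma), and edgeR on unique hits of all libraries gave an adjusted p of 0.11. That of Gnas was kept in 20 of 20. H13 thus had a log2 difference of 0.17 between the F0 strains and of -0.21 between the paternal alleles, and the difference of these values was not tested.

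**Figure D5:**
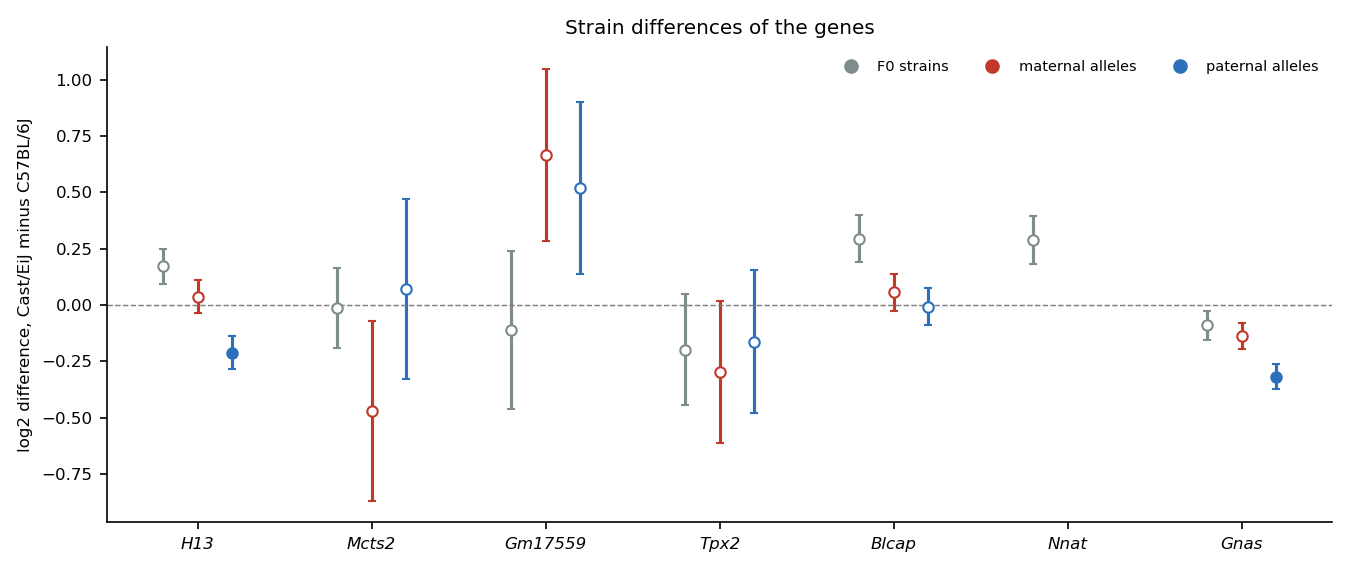
Log2 difference of Cast/EiJ minus C57BL/6J (vertical axis) with its SE between the F0 strains, between the maternal alleles and between the paternal alleles, with filled points at an adjusted p under 0.05. The filled points are the paternal alleles of H13, at -0.21, and Gnas, at -0.32, and Nnat has an F0 value only.

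The reciprocal crosses were compared by the sum of both alleles, which asks whether the total level depends on the direction of the cross. Over all genes 6 of 14967 (0.0401%) differed by limma, and of the 7 genes tested 0 did, with 0 at an unadjusted p under 0.05. EdgeR and DESeq2 on the unique hits also called 0 of 6, beside 4 and 11 of all 13562 genes. Each had 1 at an unadjusted p under 0.05, which by edgeR was Gnas (-0.71). H13 had a log2 difference of -0.09 (SE 0.06) between F1 CastxB6 and F1 B6xCast, Mcts2 of 0.13 (SE 0.12) and Gnas of -0.06 (SE 0.05). Gm17559, with -0.34 (SE 0.17), had the largest value among the 7.

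The maternal over paternal log2 ratio differed between the crosses in 47% of the 13414 genes, and in 1 of the 6 genes here. For Gnas the count equivalents were closer to even in F1 B6xCast, with a maternal share of 51.8%, than in F1 CastxB6, with 59.6% (difference of the log2 ratios -0.46, SE 0.08, adjusted p = 8.7e-05 from limma). The unique hits gave -0.49 for the same difference (adjusted p = 0.33 from edgeR). Gm17559 had 1.19 (SE 0.50, adjusted p = 0.063 from limma).

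The pattern most like that of H13 over the 12 allele columns of the F1 libraries, by Pearson's r of log2(count equivalents + 1) among 13408 genes, was that of Rian (0.982), Mirg (0.981) and Meg3 (0.980) on chromosome 12. For Mcts2 the 3 were Mkrn3 on chromosome 7 (0.961), Rasgrf1 on chromosome 9 (0.955) and Sgce on chromosome 6 (0.950). The columns share libraries, so r is a description of pairs of profiles. The likeness is in the order of the columns and not in the size of the parental difference. Rian had 15668 maternal and 4 paternal unique hits, where H13 had 4720 and 2058, and Rasgrf1 had 16 maternal and 6587 paternal hits, where Mcts2 had 30 and 258.

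Other imprinted host and nested genes were set beside H13 and Mcts2. The nested genes Nap1l5, inside Herc3, and Zrsr1, inside Commd1, had maternal shares of 3% (Wilson 95% interval 2.45 to 3.67) and 4.93% (3.68 to 6.58) of their unique hits, below the 10.4% of Mcts2. The host genes Herc3, with 51.8% (51.3 to 52.2), and Commd1, with 49.9% (44.9 to 54.8), were close to even over both crosses, where H13 stood at 69.6%. For Commd1 the crosses lay on opposite sides, with 40% (33.2 to 47.2) in F1 B6xCast and 58.8% (52.0 to 65.4) in F1 CastxB6, and its ratio differed between them by edgeR on unique hits (-1.10, adjusted p = 0.0072) but not by limma on count equivalents (-0.42, adjusted p = 0.29). Trappc9, the host of Peg13, lay between them at 58.6% (57.8 to 59.4). Its crosses also parted, with 55.9% (54.7 to 57.1) in F1 B6xCast and 60.8% (59.7 to 61.8) in F1 CastxB6, on the same side of 50%. Inpp5f, a phosphatase gene with known paternal transcripts, had 30.7% (29.1 to 32.4). The count equivalents of Commd1 gave 62.7% where its unique hits gave 49.9%, another gene for which both kinds of value parted. In F0, where 33.8% of all genes were called, 3 of the 6 genes of this list that were tested were lower in Cast/EiJ and 0 higher, among them Trappc9 (log2 difference -0.51, adjusted p = 0.00093 from limma) and Herc3 (-0.30, adjusted p = 0.0087), with a list median of -0.25 beside 0.03 over all genes.

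The genes that share a pathway with the members were compared between the F0 strains, where 33.8% of all genes were called and the median log2 difference of all genes was 0.03. With so few genes in a list, its count is read as no result about the list. Of the 26 tested genes of Gs and cAMP signalling, in which Gnas supplies the alpha subunit, 2 were higher and 3 lower in Cast/EiJ, a smaller share than the 33.8% of all genes, with a median log2 difference of -0.06. Gnal, the olfactory alpha subunit closest to that of Gnas, was lower (310 ± 15 against 501 ± 23.3 count equivalents, log2 difference -0.69, adjusted p = 0.00043 from limma). Prkar2a, a regulatory subunit of protein kinase A, was higher (log2 difference 0.42, adjusted p = 0.0037), Adcy6, an adenylyl cyclase, was lower (-0.55, adjusted p = 0.0062), and Prkar1b, another regulatory subunit, was lower (-0.30, adjusted p = 0.016). Gnas itself was not called.

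Among 6 tested genes of signal peptide processing 2 were higher and 1 lower in Cast/EiJ, beside 33.8% of all genes, with a median of 0.28 beside 0.03. Sppl3, an intramembrane protease related to the H13 product, had 1060 ± 110 count equivalents in F0 Cast/EiJ and 758 ± 62.4 in F0 C57BL/6J (log2 difference 0.48, adjusted p = 0.0056 from limma). Sec11a, a catalytic subunit of the signal peptidase, was higher as well (0.49, adjusted p = 0.015), and Spcs3, another subunit of it, was lower (-0.48, adjusted p = 0.020). Denr and Eif2d, which act in translation reinitiation with or like MCTS1, had log2 differences of -0.07 (adjusted p = 0.67 from limma) and 0.09 (adjusted p = 0.51).

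Of the 9 tested genes that set or keep imprints, 3 were higher and 0 lower in Cast/EiJ, a share near the 33.8% of all genes, with a median of 0.20 beside 0.03. They were Trim28, the corepressor that ZFP57 recruits (log2 difference 0.47, adjusted p = 0.0014 from limma), Zfp445, a zinc finger protein that binds imprinted regions (0.44, adjusted p = 0.0022), and Ctcf, an insulator protein (0.21, adjusted p = 0.038). Zfp57 itself had 88.3 ± 8.17 count equivalents in F0 C57BL/6J and 91.9 ± 14.0 in F0 Cast/EiJ (log2 difference 0.05, adjusted p = 0.85).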

How the data were processed

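The 4 deposited tables used here hold 37991 genes and 12 libraries. Per the labels the reads were trimmed with Trim Galore 0.2.6 and mapped with Bowtie 0.12.9, on transcripts of Ensembl release 67 (mm9, that is NCBI37), and the authors estimated expression with MMSEQ. The count equivalents are a signal that the authors normalized across libraries. The natural log of expression and its posterior SD, a score of other kind, were deposited by the authors as well. The unique hits were deposited as a count with no normalization. A further deposited table holds the authors' own model comparisons and was not used. The genes and lists were chosen with earlier results of these data known.

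Log2 of the count equivalents plus 1 was compared with limma 3.58.1 over all autosomal genes, with Benjamini-Hochberg adjustment and calls at an adjusted p under 0.05. The F0 strains and the cross totals used genes with at least 10 count equivalents in 3 libraries. The alleles used 1 model of all libraries in which the alleles of an F1 library were blocked (estimated correlation 0.1354), over genes whose allele-specific unique hits averaged 10 or more per F1 library, which only genes with a polymorphism reach. Each library is a pool of retinas that the study's methods call a biological replicate, and p-values measure the spread between these pools. Alternatives were edgeR 4.0.16 and DESeq2 1.42.0 on unique hits, TMM factors, pseudocounts of 0.1 and 5, no filter, a replicate block, F1 libraries only and each library left out. Of the fits, limma on the F0 strains and on the alleles and edgeR on the F0 unique hits were run on simulated data. The other fits were not. Python 3.11.15 and R 4.3.3 were used. Named besides the 8 genes were neighbours within 500 kb that passed limma or edgeR, at most 4 genes of a list by the smallest adjusted p in F0, the host and nested pairs, and the 3 genes most like H13 and Mcts2. Mki67 and Zfp57 were named outside this rule, after their values were seen.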

Additional observations from a re-analysis of the deposited data

Results flagged for a closer look

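The maternal to paternal ratio of Gnas differed between the reciprocal crosses, by a log2 difference of -0.46 between F1 B6xCast and F1 CastxB6 (adjusted p = 8.7e-05 from limma), by the test of the difference itself, which 47% of the 13414 genes tested passed. This difference is by construction the sum of the Cast/EiJ minus C57BL/6J differences of the maternal (-0.14) and paternal (-0.32) alleles, so it is no separate result. By edgeR on unique hits the maternal difference was 0.39 and the paternal one -0.88. The maternal share of the Gnas count equivalents was 50.5% to 53.0% in the 3 F1 B6xCast libraries and 57.1% to 61.0% in the 3 F1 CastxB6 libraries. The unique hits of Gnas gave a maternal share of 30% (Wilson 95% interval 24.8 to 35.8) in F1 B6xCast and of 37.4% (30.5 to 44.9) in F1 CastxB6, on the other side of 50%. The part of the shared reads in this difference was not tested.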

How the results depend on the processing

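The directions of H13, Mcts2, Gm17559 and Tpx2 in the parent-of-origin ratio held in all 20 alternatives each, with 1.02 to 1.20 for H13, -3.51 to -2.99 for Mcts2, 1.15 to 1.76 for Gm17559, and -1.87 to -1.26 for Tpx2. That of Gnas turned to -0.98 with edgeR and -0.98 with DESeq2 on unique hits, and its maternal share to 33.3%. Over all genes the parent-of-origin calls fell from 66 to 38 with edgeR and 41 with DESeq2, and lay between 56 and 76 with each library left out. Leaving a library out gave 3258 to 4341 calls between the F0 strains, 3139 to 4092 between the maternal and 3249 to 4139 between the paternal alleles. With no filter the F0 calls fell to 3161 of 34964 genes tested. The cross totals gave 11 calls with DESeq2, 24 with no filter, and 0 to 7 with a library left out, with 0 by limma without F1 B6xCast replicate 3 (935 genes at an unadjusted p under 0.05) and 2 without F1 B6xCast replicate 2.

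Signs turned for the values that follow, of which limma called none with all libraries. On unique hits, with edgeR and DESeq2, the maternal allele difference of H13 became -0.0059 and -0.0088 and that of Gnas 0.39 and 0.39, the paternal one of Tpx2 0.084 and 0.089, the cross total of Tpx2 0.18 and 0.18, and the parental ratio of Blcap -0.018 and -0.019. With TMM factors the paternal difference of Blcap became 0.020. With each library left out, F0 differences ran from -0.17 to 0.10 for Mcts2 and -0.34 to 0.084 for Gm17559, maternal ones from -0.0031 to 0.082 for H13 and -0.60 to 0.039 for Tpx2, paternal ones from -0.022 to 0.14 for Mcts2, -0.050 to 0.056 for Blcap and -0.39 to 0.025 for Tpx2, cross totals from -0.061 to 0.016 for Blcap, -0.10 to 0.15 for Nnat and -0.19 to 0.072 for Tpx2, and the parental ratio of Blcap from -0.0073 to 0.029. The cause was not tested.

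Whether the replicate numbers pair the samples was not tested. Same-numbered F0 libraries correlated at 0.33, 0.03 and 0.14 in their deviations, and differently numbered ones at -0.27 to 0.17. Same-numbered F1 libraries correlated at -0.10, -0.12 and -0.06, and differently numbered ones at -0.0017 to 0.12. With the number as a replicate block the calls were 6376 in F0, 4245 and 4300 for the maternal and paternal alleles, 4 for the cross totals and 54 for the parental ratio, and Blcap (adjusted p = 0.0049) and Nnat (adjusted p = 0.031) were called in F0. They were also called, with H13, without F0 C57BL/6J replicate 1. Without F1 CastxB6 replicate 1 Mcts2 passed between the maternal alleles (-1.06, adjusted p = 0.023), and without F1 CastxB6 replicate 3 Gnas did (-0.18, adjusted p = 0.043). The number of allele-specific hits limits the allele values of Nnat and Nespas, with 8 and 2, and of Tpx2 and Gm17559, with 129 and 88.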
